A study of Mus musculus with 6 samples.

Results

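Same-strand intronic features are transcribed stretches that lie inside a protein-coding gene, on the strand listed for that gene. On that strand they touch no exon that GENCODE M21 annotates for the gene types named below. They were chosen from the authors' deposited table of noncoding features by position. A row was kept when it lay in the body of a GENCODE M21 protein-coding gene on its listed strand and overlapped no same-strand exon of a protein-coding, long noncoding RNA or small RNA gene. Rows over Hdac9 were left out by name, and the set was chosen with earlier results of these data known. This gave 607 of 34518 rows (1.76%), in 156 host genes. A host is named here by the gene whose body holds the feature, and a feature by the assembler's identifier in the authors' deposited table.

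Most of the body of a mammalian gene is intron, which is transcribed with the exons and then spliced out. Spliced introns are usually degraded within the nucleus, but some pieces last, and other RNAs begin inside introns, for instance at enhancers. RNA without a poly(A) tail is rich in both. FOG2, the product of Zfpm2, binds GATA transcription factors and turns their activity up or down at cardiac genes.

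The libraries came from the left atria of CD1 mice, outbred animals studied as adults. The FOG2_OE group (n = 3) overexpressed FOG2 and the WT group (n = 3) was its wild-type control. The animals, called DTG and NTG in the protocol text, had been without doxycycline for 1 week in both groups. The promoter that drives the transgene and the number of animals behind a library are not given in the sources used here, so that the replicates may be technical in part. Before library preparation, ribosomal RNA was removed from total RNA and so was RNA with a poly(A) tail. The TruSeq RNA v2 kit does not mark strand, so that the strand of a feature is the one the authors listed, and intronic reads of a host cannot be told apart from those of a transcript on the other strand.

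The bases printed below are those of RefSeq promoter windows, each running from 250 bases before to 50 bases after an annotated start on build GRCm38.p6. Bases of the members outside such windows were not available here. Of the 156 hosts, 102 had such a window, and 8 members overlapped a window of any gene. The first 2 belong to Ostf1 (chr19:18631764-18632063, minus strand), whose 12 members all had lower fitted levels in FOG2_OE, and to Slc8a1 (chr17:81738338-81738637, minus strand), whose 5 members lie next to its start. The other 3 are shown because they lie wholly inside a member and so are part of the measured bases. They belong to Cnot8 (chr11:58092544-58092843, plus strand), inside MSTRG.13458 in the host Gm12248, to Gm40571 (chr12:108683132-108683431, minus strand), inside MSTRG.21347 in the host Degs2, and to Gm32059 (chr7:16045947-16046246, plus strand), inside MSTRG.73761 in the host Bicra. The Cnot8 and Gm32059 windows are on the strand opposite to the one listed for the member. The Gm40571 window is on the member's own listed strand. MSTRG.21347 thus covers a RefSeq start on its strand, although it overlaps no same-strand exon of the GENCODE types used. Capitals mark GATAAG, a form of the GATA motif. GATAAG and GGTGTG, the core letters of T-box sites, were searched on both strands.
Ostf1: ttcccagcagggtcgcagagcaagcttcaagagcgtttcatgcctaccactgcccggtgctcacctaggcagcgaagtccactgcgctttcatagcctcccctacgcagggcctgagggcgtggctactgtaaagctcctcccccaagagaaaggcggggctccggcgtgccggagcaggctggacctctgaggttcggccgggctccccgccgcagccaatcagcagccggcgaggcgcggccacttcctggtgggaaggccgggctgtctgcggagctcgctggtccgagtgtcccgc
Slc8a1: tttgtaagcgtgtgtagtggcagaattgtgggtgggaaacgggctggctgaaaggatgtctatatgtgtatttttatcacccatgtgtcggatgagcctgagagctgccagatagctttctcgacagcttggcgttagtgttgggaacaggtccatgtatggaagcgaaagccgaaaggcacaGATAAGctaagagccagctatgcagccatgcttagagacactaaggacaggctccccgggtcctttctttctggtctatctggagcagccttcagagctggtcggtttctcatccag
Cnot8: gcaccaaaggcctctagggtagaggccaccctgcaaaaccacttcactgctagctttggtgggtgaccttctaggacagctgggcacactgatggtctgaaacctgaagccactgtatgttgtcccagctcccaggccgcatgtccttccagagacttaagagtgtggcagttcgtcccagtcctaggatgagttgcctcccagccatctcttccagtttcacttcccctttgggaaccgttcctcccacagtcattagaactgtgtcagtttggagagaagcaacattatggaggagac
Gm40571: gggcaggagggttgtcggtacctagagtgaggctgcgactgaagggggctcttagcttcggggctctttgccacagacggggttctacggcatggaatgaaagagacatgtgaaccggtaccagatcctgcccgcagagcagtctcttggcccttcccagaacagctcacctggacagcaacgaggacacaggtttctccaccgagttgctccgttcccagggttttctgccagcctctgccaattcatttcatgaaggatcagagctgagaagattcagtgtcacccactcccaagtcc
Gm32059: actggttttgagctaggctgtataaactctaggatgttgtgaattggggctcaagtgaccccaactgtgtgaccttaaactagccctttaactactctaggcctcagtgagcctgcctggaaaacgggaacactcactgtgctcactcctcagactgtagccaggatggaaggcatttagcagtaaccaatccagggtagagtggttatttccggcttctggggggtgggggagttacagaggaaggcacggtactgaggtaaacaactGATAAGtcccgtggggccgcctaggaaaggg

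Slc8a1 and Gm32059 held 1 GATAAG each, and the other 3 windows held none. GGTGTG occurred in none of the 5. GATAAG was found in 7.44% of 32851 RefSeq promoter windows and GGTGTG in 19.0%, so that these matches are a description of the letters and not of binding. None of the 8 members that overlapped a window passed the test between the groups.

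The comparison of FOG2_OE with WT asked whether intronic RNA moved when FOG2 was raised. The authors' deposited table gives for each feature a log2 fold change, an adjusted p from a likelihood ratio test over all 34518 rows, and 6 sample columns. Those columns hold values fitted by the authors' model, not reads, and within a group they differ only by library size. No spread between replicates can be read from them, so that levels are given for each group as fitted CPM, fitted reads scaled to the size of the effective library. These libraries ran from 71.1 to 84.8 M reads. The standard error printed with a fold change, the implied SE, was solved from the deposited likelihood ratio where that ratio was at least 0.1. For other rows it rests on the median dispersion of rows of similar abundance. A feature is called higher or lower at an adjusted p under 0.05. Of all rows, 5.81% were called in the authors' deposited table, 1.16% higher and 4.65% lower.

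Few of these intronic features were called. Of the 607, 3 had higher calls in FOG2_OE, and 9 had lower calls, in the authors' deposited table. That is 1.98% of them, a smaller share than the 5.81% of all rows. The share leaves out Hdac9, where 44 of 95 same-strand intronic features were called, or 46.3%. It therefore does not describe all same-strand intronic rows. At an unadjusted p under 0.05, 18 of the 607 were higher and 47 lower, or 10.7%, where 17.0% of all rows passed in the authors' deposited table. For the members the log2 fold change had a median of -0.08, from the authors' deposited table, beside -0.21 over all rows, with 267 members above 0 and 340 below. With the median ratio of all rows set to 1, the members' median became 0.13, so that its sign rests on the scale between the groups. Another 3 members above 0 and 9 below it had adjusted p-values between 0.05 and 0.10 in the authors' deposited table. The quartiles of the log2 fold change were -0.59 and 0.42 in the authors' deposited table, beside a median implied SE of 0.73. A spread of the size of the error does not show that levels were stable.

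The authors' test takes each dispersion as known. With an F distribution, which allows for an estimated one (10 residual degrees of freedom), the same likelihood ratios of the 12 called members gave adjusted p-values of 0.0547 to 0.228, and none passed. With the median ratio of all rows set to 1, both Adamtsl1 members and the calls in Asap2, MSTRG.42716, MSTRG.42717, MSTRG.21290 and MSTRG.84160 passed. The other 5 did not, with adjusted p-values of 0.0532 for MSTRG.23062, 0.0563 for MSTRG.42718, 0.0588 for MSTRG.42056, 0.0657 for MSTRG.21291 and 0.101 for MSTRG.84164. In bulk tissue, fewer cells of a type and less RNA per cell cannot be told apart, which holds for every value given here.

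Other classes of the same table gave different shares. The 95 same-strand intronic features of Hdac9, left out here by the rule, gave 44 calls of a higher level and 0 of a lower one in the authors' deposited table; their median log2 fold change was 1.54. Rows antisense to protein-coding genes by their listed strand (9664 rows) had 97 higher and 394 lower, or 5.08%, and those outside protein-coding gene bodies (21810 rows) had 217 and 1104, or 6.06%, in the authors' deposited table. No test of the difference between classes was made, since features of a host are not independent.

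Depth was alike between the members and the rest. The median fitted count was 7.12 per library for the members and 7.22 for all rows, and 76.3% of either lay under 20. Of the 207 members under 5 fitted counts per library, 1 was called higher and 4 were called lower, with a median implied SE of 1.09, from the authors' deposited table. Of the 256 between 5 and 20, 4 were called lower. Between 20 and 100 none of 96 was called, between 100 and 1000 1 of 42 was called lower, and at 1000 or more 2 of 6 were called higher, with a median implied SE of 0.27. Thus 9 of the 12 calls rest on fewer than 20 fitted counts per library, and 5 of them on a group at 0.

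**Figure D1:**
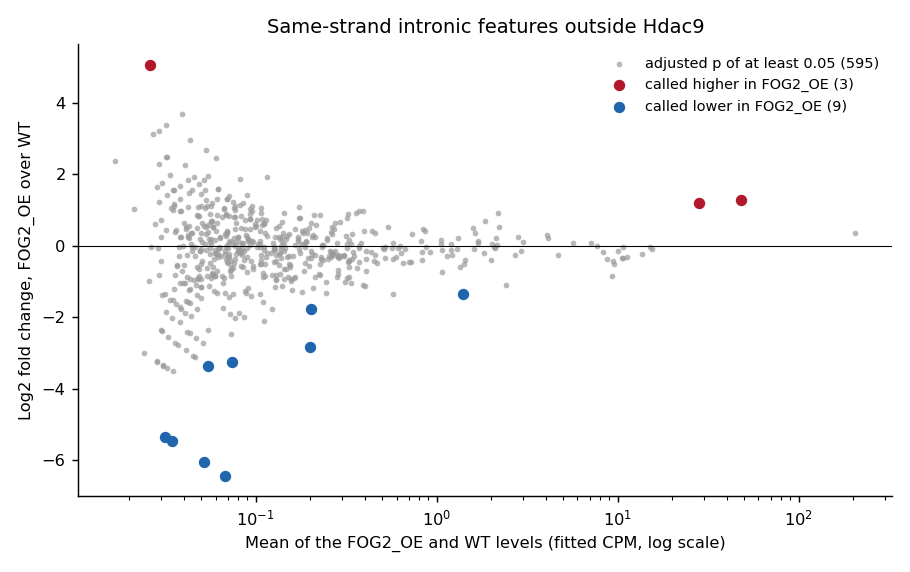
Each point is 1 of the 607 members, with the mean of the FOG2_OE and WT levels (fitted CPM, log scale) on the horizontal axis and the authors' deposited log2 fold change, FOG2_OE over WT, on the vertical axis. The 3 members called higher and the 9 called lower are coloured, and the spread widens toward scarce features.

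Adamtsl1, which encodes a secreted glycoprotein of the extracellular matrix related to the ADAMTS proteases, held the 2 abundant members that were higher in FOG2_OE. MSTRG.59203 (chr4:85810025-85832664, plus strand, 22640 bases) lay 26.9 kb from the nearest exon and had fitted counts of 5400, 4912 and 5755 in FOG2_OE replicates 1 to 3, against 1987, 2189 and 2296 in WT replicates 1 to 3. The groups do not overlap, but the values within a group differ by library size alone. In CPM this was 67.9 in FOG2_OE and 27.9 in WT, a 2.43-fold difference, and the log2 fold change was 1.28 (implied SE 0.35; adjusted p = 0.00891), from the authors' deposited table (likelihood ratio test, Benjamini-Hochberg). MSTRG.59201 (chr4:85765121-85776447, 11327 bases) stood at 39.3 CPM in FOG2_OE and 17.0 in WT, with log2 fold change 1.20 (implied SE 0.34, adjusted p = 0.0135), from the authors' deposited table.

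Both Adamtsl1 members had close to the same level per length, 3.0 and 3.47 CPM per kb in FOG2_OE and 1.23 and 1.504 CPM per kb in WT. Between them lay MSTRG.59202 (chr4:85777011-85783161), which overlaps an Adamtsl1 exon and so is not a member. It was also higher, at 21.7 CPM in FOG2_OE and 8.22 in WT, with log2 fold change 1.40 (implied SE 0.33, adjusted p = 0.00161), from the authors' deposited table. It was the one other row within 50 kb. The 3 features lie, with gaps between them, within a stretch of 67.5 kb in a host of 914 kb. The first starts 251 kb into the host, and no test was made of whether 1 transcript gave rise to all of them.

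The remaining higher call was MSTRG.18475 (chr12:21076834-21076957, plus strand, 124 bases) in Asap2, a GTPase-activating protein for Arf GTPases that acts on the cytoskeleton and membrane traffic. Its fitted level was 0.0523 CPM in FOG2_OE, or 12.4 counts over the group, and 0 in WT, at least 4.04-fold higher taking 3 counts over the group as the floor (adjusted p = 0.0409, from the authors' deposited table). The other members in Asap2, all 44.3 to 116 kb upstream of its RefSeq start, were not called, and the range over the host was -2.39 to 5.07 in the authors' deposited table. As a whole the 35 features of this host summed to 12.6 CPM in FOG2_OE and 12.7 in WT, and their median log2 fold change was -0.03 in the authors' deposited table.

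The 9 lower calls came from 5 hosts, and 3 of them from Ostf1, which encodes osteoclast stimulating factor 1, an SH3 and ankyrin repeat protein. MSTRG.42716 (chr19:18550660-18550910, minus strand) had fitted counts of 0 in each FOG2_OE library, against 9.64, 10.6 and 11.1 in WT replicates 1 to 3. This is at least 10.7-fold lower in FOG2_OE (adjusted p = 0.000128, from the authors' deposited table). The WT counts of this feature differ by library size alone. MSTRG.42717 (chr19:18565695-18565859) was also at 0 in FOG2_OE, against 0.104 CPM in WT, at least 8.22-fold lower (adjusted p = 0.000415, from the authors' deposited table). MSTRG.42718 (chr19:18568098-18568254) stood at 1.97 counts over the FOG2_OE group and 23.2 over the WT group, a ratio of 0.0832 with a 95% counting interval of 0.00972 to 0.344. Its log2 fold change was -3.36 (implied SE 1.28, adjusted p = 0.0325), from the authors' deposited table.

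All 12 Ostf1 members had a log2 fold change below 0, from -6.42 to -1.31 with a median of -2.62, from the authors' deposited table, and 11 of the 12 had an unadjusted p under 0.05. Their summed level was 0.62 CPM in FOG2_OE and 2.23 in WT, a 3.598-fold difference. None of the 12 lies in the gene as RefSeq draws it. They run from 2.69 to 54.6 kb past its RefSeq end, 54.1 to 106 kb from the start in the promoter window printed above, and each is spanned by 1 of the 5 transcripts that GENCODE lists for Ostf1. The most abundant, MSTRG.42721, had 0.324 CPM in FOG2_OE and 0.818 in WT and missed the threshold (log2 fold change -1.33, implied SE 0.45, adjusted p = 0.0531, from the authors' deposited table).

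**Figure D2:**
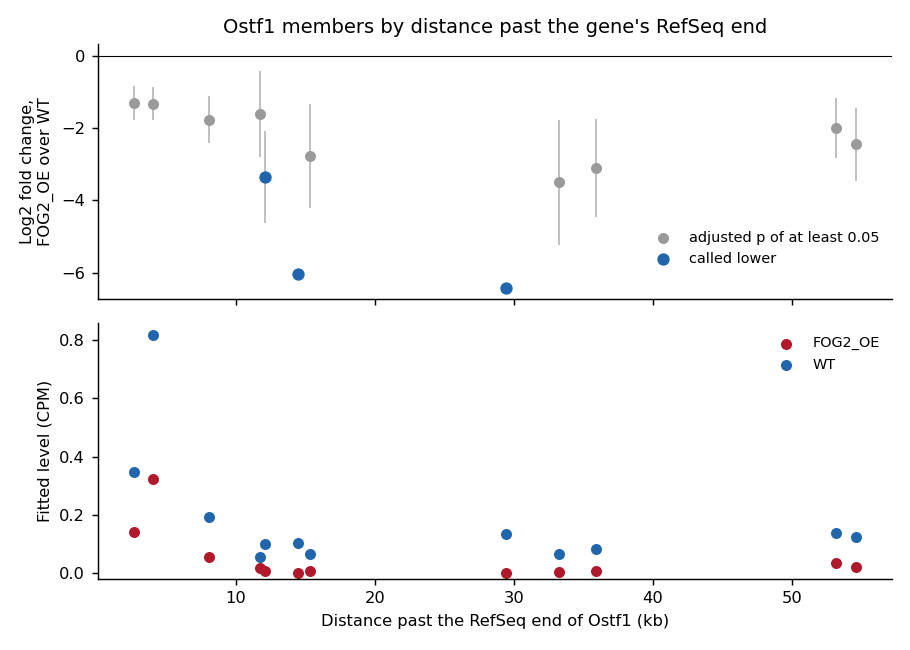
The 12 Ostf1 members are placed by their distance past the RefSeq end of the gene in kb, with the authors' deposited log2 fold change, FOG2_OE over WT, above and the fitted level in CPM of FOG2_OE and WT below. Bars are 1 implied SE, and the 2 points with FOG2_OE at 0 have none. All 12 points lie below 0.

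Rows that are not members continued the run. MSTRG.42706 (chr19:18512433-18512633) and MSTRG.42710 (chr19:18513782-18514223), beyond the GENCODE body of Ostf1 on the same listed strand, were both called lower in the authors' deposited table (adjusted p = 0.00434 and 0.000351). On the other side, MSTRG.42808 (chr19:18577955-18580253), which overlaps an Ostf1 exon, had 1.16 CPM in FOG2_OE and 1.49 in WT and was not called (log2 fold change -0.36, implied SE 0.38, adjusted p = 0.695, from the authors' deposited table). By position this exonic row also lies past the RefSeq end of Ostf1. It and the members therefore had different values, and the difference between them was not tested.

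Siae, the gene of sialic acid acetylesterase, an enzyme that removes acetyl groups from sialic acids, held 5 members and all had a log2 fold change below 0, from -3.25 to -1.53 in the authors' deposited table. MSTRG.84160 (chr9:37579217-37579505, plus strand) had 3.04 counts over the FOG2_OE group and 31.5 over the WT group, a ratio of 0.0944 with a 95% counting interval of 0.0185 to 0.303 (log2 fold change -3.25, implied SE 1.06, adjusted p = 0.012, from the authors' deposited table). MSTRG.84164 (chr9:37572858-37573549) stood at 0.0907 CPM in FOG2_OE against 0.314 in WT (log2 fold change -1.77, implied SE 0.59, adjusted p = 0.0432, from the authors' deposited table). The summed level of the 5 was 0.136 CPM in FOG2_OE and 0.638 in WT. They lie 26.2 to 40.3 kb upstream of the RefSeq start, and each is spanned by 1 of the 7 transcripts that GENCODE lists.

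Slc25a47, a mitochondrial carrier gene best known from liver, held 6 members with unlike log2 fold changes, from -5.46 to 0.48 in the authors' deposited table. MSTRG.21290 (chr12:108847971-108848091, plus strand) was at 0 in FOG2_OE and 0.0691 CPM in WT, at least 5.45-fold lower (adjusted p = 0.0069, from the authors' deposited table). MSTRG.21291 (chr12:108846510-108847431) stood at 0.0485 CPM in FOG2_OE and 0.352 in WT, a 7.26-fold difference (log2 fold change -2.82, implied SE 0.90, adjusted p = 0.0375, from the authors' deposited table). The adjacent and far more abundant MSTRG.21289 (chr12:108839057-108846226) had 8.09 CPM in FOG2_OE and 10.9 in WT and was not called (log2 fold change -0.43, implied SE 0.32, adjusted p = 0.539, from the authors' deposited table). Of the 11 other rows within 50 kb none was called in either direction in the authors' deposited table. Only 2 of the 6 members lie inside the RefSeq body of Slc25a47. MSTRG.21289 and both called members lie upstream of its RefSeq start, by at most 3.61 kb.

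Gmpr, guanosine monophosphate reductase of purine salvage, held the lower call with the most reads. MSTRG.23062 (chr13:45546531-45547119, plus strand) had fitted counts of 62.5, 56.8 and 66.6 in FOG2_OE replicates 1 to 3, against 142, 157 and 165 in WT replicates 1 to 3. Within a group these counts differ by library size alone. The level was 0.785 CPM in FOG2_OE and 2.004 in WT, 2.55-fold lower, with log2 fold change -1.35 (implied SE 0.38, adjusted p = 0.0121), from the authors' deposited table. It begins 0.145 kb past the RefSeq end of Gmpr. The next features on the strand had similar values without passing: MSTRG.23107 had log2 fold change -1.08 (implied SE 0.40, adjusted p = 0.0927) and the exonic row MSTRG.23109 of -1.03 (implied SE 0.36, adjusted p = 0.0643), from the authors' deposited table.

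The last of the 12 was MSTRG.42056 (chr19:5394730-5394852, minus strand) in Tsga10ip, which encodes a partner of a testis-specific protein. It was at 0 in FOG2_OE and 0.0632 CPM in WT, at least 4.99-fold lower (adjusted p = 0.0424, from the authors' deposited table). It was the host's single member, and the count over the WT group was 14.6. Of 5 other rows within 50 kb, 1 was called: MSTRG.42054 (chr19:5375245-5375843), on the same listed strand and outside any protein-coding gene body, had 0.109 CPM in FOG2_OE and 0.332 in WT (log2 fold change -1.59, implied SE 0.51, adjusted p = 0.0293, from the authors' deposited table).

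**Figure D3:**
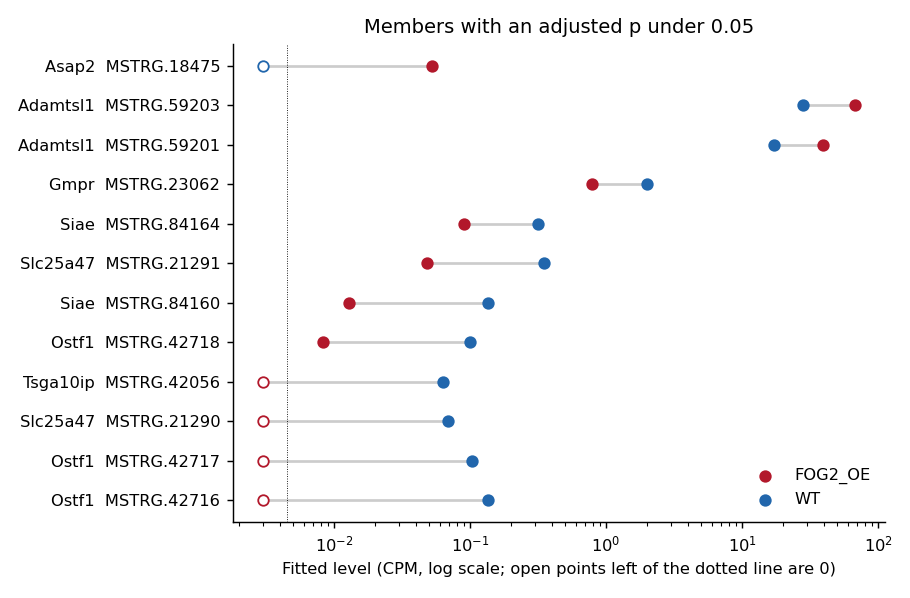
For each of the 12 called members the fitted level in CPM (log scale) is shown in FOG2_OE and in WT, joined by a line. Open points left of the dotted line stand at 0, in FOG2_OE for 4 members and in WT for 1, and the 2 Adamtsl1 members lie far to the right of the others.

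About as many members lay outside the gene as RefSeq draws it as inside. Of the 607, 288 lay inside the RefSeq body of their host (47.4%), 122 upstream of its start, 155 downstream of its end and 2 across an edge, and 40 had a host whose symbol was not found in the RefSeq table. In the authors' deposited table the inside group gave 2 higher and 1 lower calls, the upstream group 1 and 4, and the downstream group 0 and 4. So 3 of the 12 calls lay inside a RefSeq body and 9 elsewhere. Median log2 fold changes were -0.01 inside, -0.24 upstream and -0.08 downstream in the authors' deposited table. The upstream members came from 25 hosts and lay a median of 20.3 kb out, and the downstream ones came from 45 hosts and lay a median of 8.49 kb out. Since features of 1 host sit together, no test was made of these shares.

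Transcript support was thin for many members. For 327 of the 607, a single GENCODE transcript of the host spanned the feature, and the same was true of 9 of the 12 called ones. At least 1 transcript of protein-coding type spanned 454 members (74.8%), while 153 lay only within retained-intron, processed or other transcripts of a protein-coding gene. Hosts were long, with a median of 88.1 kb, and the median member lay 28.3 kb from the host's start and 3.65 kb from the nearest same-strand exon. Within 1 kb of an exon lay 148 members (24.4%). Another member of the same host lay within 1 kb of 350 (57.7%), so that many are neighbouring pieces and not separate observations.

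Most members were short. The median length was 236 bases, near the 238 of all rows, and 356 members (58.6%) were under 300 bases, while the longest ran over 46884. A row listed on the opposite strand overlapped 13 members (2.14%), and an exon on the opposite strand 38.

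The abundance of the class sat in a few long features. The members' fitted levels summed to 637 CPM in FOG2_OE and 557 in WT, and 20 members over 5 kb held 479 CPM of this in FOG2_OE and 390 CPM in WT. The 12 most abundant held 68.8% in FOG2_OE and 61.1% in WT. The ratio of the sums was 1.14, where that over all rows was 1.18. The members' ratio rested on 2 hosts: it was 1.04 without both Adamtsl1 members and 0.90 without these and the most abundant member.

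That member was MSTRG.83553 in Maml2 (chr9:13463559-13510442, plus strand, 46884 bases), a mastermind-like coactivator of Notch signalling. It had fitted counts of 18454, 16784 and 19666 in FOG2_OE replicates 1 to 3, against 12817, 14118 and 14810 in WT replicates 1 to 3, or 232 CPM in FOG2_OE and 180 in WT. The difference did not pass the test (log2 fold change 0.36, implied SE 0.22, adjusted p = 0.424, from the authors' deposited table). It made up 36.4% of the summed level in FOG2_OE and 32.4% in WT. The counts within a group differ by library size alone, so they show no spread between replicates.

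Of the 12 most abundant members only the 2 of Adamtsl1 were called. Bicra and Bicral encode alternative subunits of a SWI/SNF chromatin remodelling complex, and their long members were nearly level. MSTRG.73761 in Bicra (chr7:16009738-16047594) had 10.6 CPM in FOG2_OE against 10.9 in WT (log2 fold change -0.03, implied SE 0.29, by the authors' deposited table). MSTRG.37808 and MSTRG.37812 in Bicral had 9.58 and 15.0 CPM in FOG2_OE and 10.6 and 16.0 CPM in WT (log2 fold changes -0.15 and -0.09, from the authors' deposited table). Setting the median ratio of all rows to 1 adds 0.21 to every log2 fold change, which puts these 3 at 0.18, 0.07 and 0.12.

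Stox2, a winged-helix gene, held 3 of the 12, spread over one stretch of chromosome 8. MSTRG.80227, MSTRG.80228 and MSTRG.80229 had 10.01, 9.48 and 9.36 CPM in FOG2_OE and 12.5, 12.05 and 11.8 CPM in WT. Their log2 fold changes lay between -0.35 and -0.32 in the authors' deposited table, with implied SEs of 0.26 to 0.31. The smallest adjusted p among the 3 was 0.588, from the authors' deposited table. St3gal1, a sialyltransferase gene, had MSTRG.30397 at 12.4 CPM in FOG2_OE against 14.7 in WT (log2 fold change -0.24, implied SE 0.26, by the authors' deposited table). MSTRG.34869 in Gm49711 stood at 7.94 CPM in FOG2_OE against 11.2 in WT (log2 fold change -0.50, implied SE 0.33), and MSTRG.21728 in Esyt2, a tether between the endoplasmic reticulum and the plasma membrane, at 14.9 CPM in FOG2_OE against 15.2 in WT (log2 fold change -0.03, implied SE 0.29), with both fold changes from the authors' deposited table. The Esyt2 value became 0.18 with the median ratio set to 1.

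Of the rhythm and calcium handling genes, 2 of the 40 listed had members. Slc8a1, the sodium-calcium exchanger that removes calcium from heart muscle cells, held 5. They lie 0.166 to 6.79 kb from the start in the promoter window printed above, within the first 7 kb of a host of 365 kb. Per length they were among the most abundant of all members: 5 of the 6 features with the highest mean CPM per kb were these. Their levels ran from 7.67 to 10.6 CPM per kb in FOG2_OE and from 7.18 to 11.2 CPM per kb in WT, where the median member had 0.386 in FOG2_OE and 0.415 in WT. The remaining one of the 6, MSTRG.47194 in the olfactory receptor gene Olfr1033, had 27.96 CPM per kb in FOG2_OE and 14.7 CPM per kb in WT (log2 fold change 0.93, implied SE 0.36, adjusted p = 0.111, from the authors' deposited table), and was named after its value was seen. It was called higher when the median ratio of all rows was set to 1 (adjusted p = 0.0347).

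The Slc8a1 members were the most alike of any host with 5 or more. Their log2 fold changes ran from -0.08 to 0.09 in the authors' deposited table, with implied SEs of 0.29 to 0.38 and a smallest adjusted p of 0.95. The most abundant, MSTRG.38913 (chr17:81735464-81736301), had 7.71 CPM in FOG2_OE and 7.69 in WT, and its log2 fold change was 0.00 (implied SE 0.29) in the authors' deposited table and 0.22 with the median ratio set to 1. All 5 likelihood ratios were under 0.1, so that these implied SEs rest on the dispersion of other rows of similar abundance. An interval of about 2 implied SEs on either side still allows a moderate change in either direction.

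Gja1, which encodes the gap junction protein connexin 43, held 2 members just past its RefSeq end. MSTRG.7968 had 0.60 CPM in FOG2_OE and 0.63 in WT, and MSTRG.7955 had 0.497 CPM in FOG2_OE and 0.646 in WT. Neither was called (log2 fold changes -0.07 and -0.38, implied SEs 0.43 and 0.42, from the authors' deposited table). Of the 27 listed transcription factors and cofactors 1 had a member: MSTRG.36585 in Nkx2-5, the cardiac homeobox factor, had 0.0465 CPM in FOG2_OE against 0.0515 in WT (log2 fold change -0.14, implied SE 0.998, adjusted p = 0.96, from the authors' deposited table), too scarce to show a change of moderate size. The sarcomere and cytoskeleton, fibroblast and matrix, endothelial and metabolism lists of hosts had no members. Some of these genes had rows outside this class, with 78 over Ttn, 11 over Col3a1 and 6 over Pecam1 on either strand. The kit does not mark strand and the authors' choice of features is not given. Having no member therefore does not show that a gene lacked intronic RNA.

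Hosts held unequal numbers of members. A single member was found in 69 of the 156 hosts, and 35 hosts with at least 5 held 394 members (64.9%). In 32 of these 35 the members took both signs, in 3 all were below 0 (Ostf1, Siae and Gramd1c) and in none all above in the authors' deposited table. The SD of the log2 fold change was 0.98 within hosts and 0.80 among the hosts' medians.

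The largest set was the 43 members in Rad51b, a gene of homologous recombination, all inside its RefSeq body. Their log2 fold changes ran from -3.35 to 2.50 in the authors' deposited table, and their median was 0.52 (27 above 0, 16 below), and none was called. They summed to 3.46 CPM in FOG2_OE and 2.46 in WT. Tcf20, a transcriptional coregulator, had the highest median, 1.03, with 14 of its 15 members above 0 and a range of -0.44 to 2.38 in the authors' deposited table. They summed to 1.18 CPM in FOG2_OE and 0.569 in WT, a ratio of 2.08, but no member passed (smallest adjusted p = 0.142, from the authors' deposited table). Of the 7 members of Hspa12a, a distant relative of the heat shock protein chaperones, 5 were above 0 with a range of -1.74 to 3.39 and a median of 0.93, and of the 21 members of Slc16a7, the monocarboxylate transporter MCT2, 13 were above 0 with a range of -1.32 to 1.68 and a median of 0.41, in the authors' deposited table. A630089N07Rik had 11 of 12 above 0, from -1.78 to 1.56, in the authors' deposited table.

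Over all rows 60.6% lay below 0 in the authors' deposited table, so that a majority below 0 in a host is no departure by itself. Of the other hosts without a called member, Rasgef1b, an exchange factor for Ras-family GTPases, had 22 of its 26 members below 0, from -1.27 to 2.69 with a median of -0.34, from the authors' deposited table, and sums of 5.03 CPM in FOG2_OE and 6.82 in WT. BC024063 had 12 of 13 below 0, from -2.35 to 0.24 with a median of -0.86, from the authors' deposited table. Gm49711 had 8 of 12 below 0 (-1.42 to 0.84) and Map3k13, a kinase of the JNK pathway, 7 of 10 (-0.59 to 1.43) in the authors' deposited table. Igfals, which encodes the acid-labile subunit that carries IGFs in blood, had 4 of 5 below 0 (-3.32 to 0.29), Gm49355 4 of 5 (-2.13 to 0.11), Ppcdc of coenzyme A synthesis 6 of 7 (-0.92 to 0.31), Ice1 5 of 6 (-1.87 to 0.26), Bbof1 5 of 7 (-0.99 to 1.94), Asb5 4 of 6 (-2.43 to 0.81) and Gramd1c 5 of 5 (-1.30 to -0.02) in the authors' deposited table.

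Other hosts also took both signs. In the authors' deposited table Otulin, a deubiquitinase of linear ubiquitin chains, had 14 members from -1.18 to 0.84 and Spire1, an actin nucleator, 14 from -0.81 to 1.13. Platr25 had 13 from -1.59 to 0.60, the ribosomal protein gene Rps14 12 from -0.86 to 0.88 and Spaar, whose small protein acts on amino acid sensing at the lysosome, 11 from -0.84 to 2.50, in the authors' deposited table. Commd10 had 10 from -2.02 to 0.46, Numa1 of the mitotic spindle 10 from -0.56 to 0.67, Zfp647 8 from -1.34 to 0.29 and Zfp52 5 from -0.88 to 0.54 in the authors' deposited table. The overlapping pairs Gm49392/Gm49393 and Zfp934/Zfp935 had 9 each, from -0.42 to 1.85 and from -0.50 to 1.64, Btg3 had 5 from -0.83 to 0.64 and Tmem202 5 from -0.41 to 1.95, in the authors' deposited table.

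**Figure D4:**
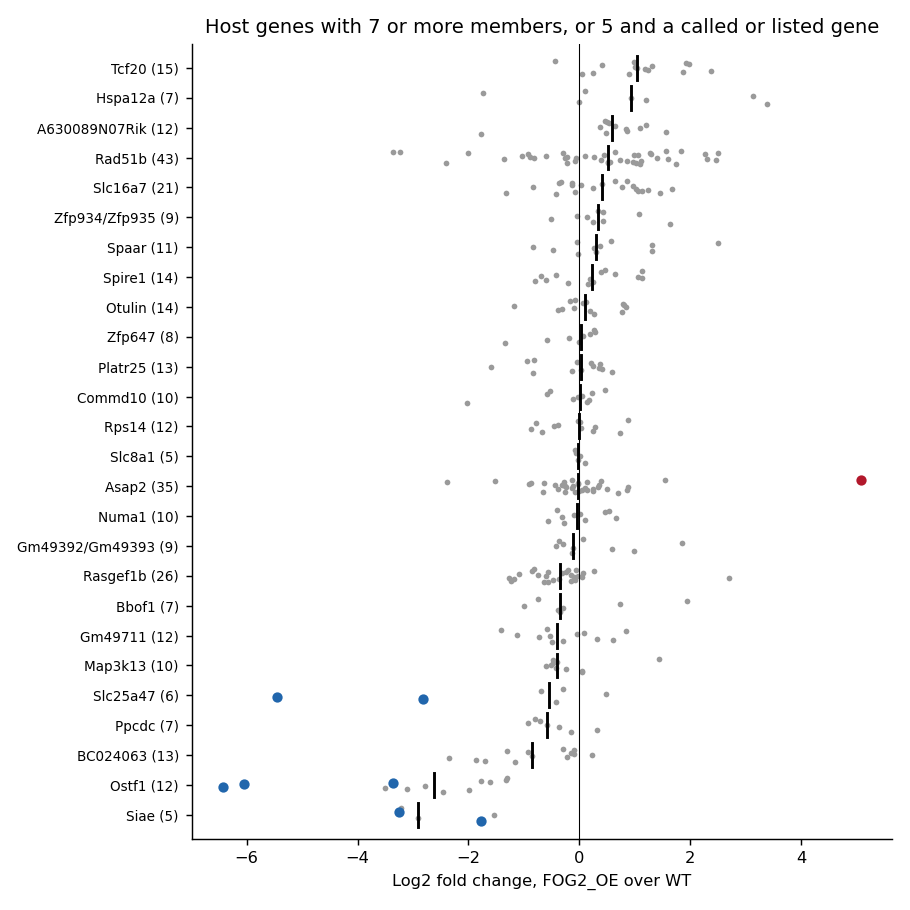
Each of the 26 rows is a host with at least 7 members, or with at least 5 and either a called member or a place in a host list (number of members in brackets), and each point is the authors' deposited log2 fold change, FOG2_OE over WT, of 1 member. Bars mark medians and large coloured points are called members. The rows run from Tcf20 (median 1.03) to Siae (median -2.91), and the Slc8a1 points fall within -0.08 to 0.09.

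The members were spread unevenly over the genome. Chromosomes 1, 3, 6 and Y held none, although the authors' deposited table lists 2175, 1872, 1907 and 25 rows there. Chromosomes 11 and X held 1 each, of 2433 and 1003 rows, and chromosome 2 held 5 of 2878. Chromosome 12 held 110, or 5.90% of its 1864 rows, chromosome 16 4.96% and chromosome 18 4.37%. Members inside RefSeq bodies followed the same pattern, with 58 on chromosome 12 and 5 on chromosome 2. Which assembled features the authors kept for the table is not given in the sources used here, so that features left out on some chromosomes cannot be told apart from an absence of intronic RNA there.

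**Figure D5:**
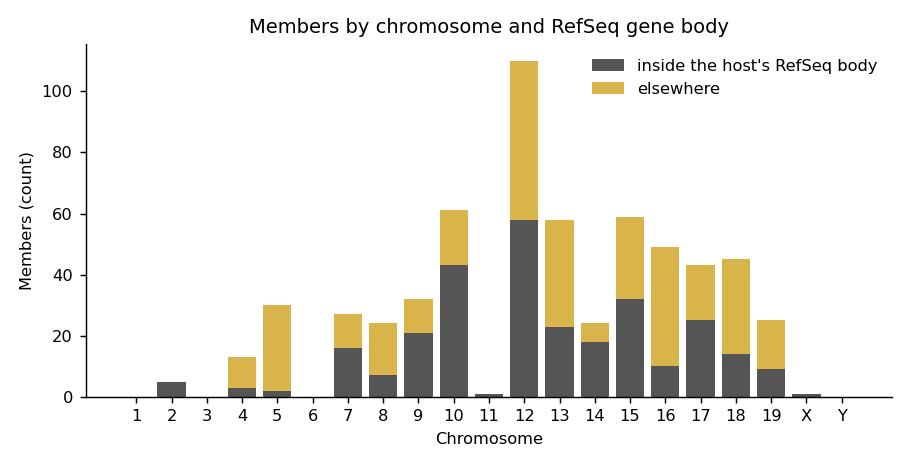
Bars give the number of members on each chromosome, split into those inside the RefSeq body of their host and those elsewhere. Chromosome 12 holds 110, and chromosomes 1, 3, 6 and Y hold none.

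The label of FOG2 overexpression was checked on rows over the targeted gene, and rows over marker genes on either strand were summed. Rows over Zfpm2 summed to 418 CPM in FOG2_OE and 1.42 in WT. Rows were present for 6 of the 8 left atrial muscle genes and summed to 72.8 CPM in FOG2_OE and 109 in WT, with Nppa and Myh6 at 0 rows. Ttn gave most of both sums (51.6 CPM in FOG2_OE, 65.3 in WT). Of the 6 genes, Myl4 was higher in FOG2_OE (2.94 CPM in FOG2_OE, 2.60 in WT) and the others were lower. The ventricular muscle, macrophage and lymphocyte, and adipocyte lists had no rows. The authors' deposited table lists noncoding features, and the atrial genes Nppa and Myh6 had no rows either. A list without rows therefore does not show that a cell type was absent. Fibroblast rows (3 of 5 genes, Pdgfra and Postn at 0 rows) summed to 3.14 CPM in FOG2_OE and 1.93 in WT, and endothelial rows (4 of 4 genes) to 1.42 CPM in FOG2_OE and 1.12 in WT. The genes of these lists differed in direction: the sums were lower in FOG2_OE for Dcn (0.76 CPM in FOG2_OE, 0.811 in WT), Kdr (0.0657 CPM in FOG2_OE, 0.105 in WT) and Tek (0.139 CPM in FOG2_OE, 0.287 in WT), and higher for Col1a1, Col3a1, Pecam1 and Cdh5. Pacemaker rows, from Hcn4 and Cpne5, summed to 5.72 CPM in FOG2_OE and 0.203 in WT. Endocardial rows (1 of 1 gene) summed to 0.723 CPM in FOG2_OE and 0.829 in WT, and the smooth muscle, Schwann cell and epicardial lists had 1 row each. These were Acta2 at 0.222 CPM in FOG2_OE and 0.00434 in WT, the WT value being below 3 counts over the group, Sox10 at 0.107 CPM in FOG2_OE and 0.0896 in WT, and Wt1 at 0.042 CPM in FOG2_OE and 0.0394 in WT. The part of these differences in the intronic values was not tested.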

How the data were processed

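Left atria of 3 FOG2_OE and 3 WT samples were measured, grouped by the titles in the labels. The submitters' processing notes name the mm10 build and, without roles, STAR, HTSeq 0.6.0, deepTools and edgeR. The authors deposited 1 table with, per the file headers, log2 values (fold change and CPM), the likelihood ratio as a score, and p-values before and after adjustment for each feature. Its 6 sample columns were constant multiples within a group (largest relative spread 9.5e-15) and were taken to be values fitted by the authors' model. The planned quasi-likelihood test and other count tests could not be run on them, and the deposited likelihood ratio test stands in its place. It treats the dispersion as known, and its p-values measure only the spread between these libraries.

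Effective library sizes came from 718 features above 300 fitted counts. The dispersion was solved from each deposited likelihood ratio of at least 0.1 and gave the implied SE. Where it could not be solved, the median dispersion of rows of similar log2 CPM was used. On counts simulated for FOG2_OE against WT (34518 features), the dispersion was solved for 75.8% of features and recovered with a median error of 0.291%. The implied SE itself was not tested. Floors use 3 counts over a group, and intervals and floors cover counting error only. Positions count from 1. Members were placed with GENCODE M21, and hosts matched by symbol to a RefSeq table of GRCm38.p6. Named members were those with an adjusted p under 0.05, the 12 most abundant, the most abundant of each host list, and hosts with at least 5 members by count and range. Of these hosts, 1 is not reported here. Features shown beside them as neighbours were chosen for position or after their values were seen. The members, the host lists and the markers were chosen with earlier results of these data known. The software was pandas 2.3.3, scipy 1.17.1 and numpy 2.4.6 in Python 3.11.15.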

Additional observations from a re-analysis of the deposited data

How the results depend on the processing

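The 12 calls (3 higher, 9 lower) depended on the test and on which rows were counted. With a median ratio of 1 they were 8 (4 higher, 4 lower), among features of at least 20 fitted counts 5 (2 higher, 3 lower, of 144), at an adjusted p under 0.01 4 (1 higher, 3 lower), with 1 row per host 3 (1 higher, 2 lower), and inside RefSeq bodies 3 (2 higher, 1 lower, of 288; chosen after seeing the data). Referred to an F distribution with 10 or with 4 residual degrees of freedom, which allows for estimated dispersions, 0 members passed, 0 higher and 0 lower, with 49 and 18 at an unadjusted p under 0.05 (65 by the deposited likelihood ratio test). Without opposite-strand rows or exons the count stayed at 12, and it was 8 for members spanned by a protein-coding transcript, also chosen after seeing the data.

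The median log2 fold change, -0.08, became 0.13 with the median ratio set to 1, a shift of the scale by 0.21. The ratio of sums, 1.14, became 1.32 with that scale, and, chosen after seeing the data, 1.24 inside RefSeq bodies, 1.04 without Adamtsl1 and 0.90 without Adamtsl1 and the Maml2 member. Of the 24 named members, 5 uncalled ones turned positive with the median ratio set to 1: MSTRG.21728 (Esyt2) at 0.18, MSTRG.36585 (Nkx2-5) at 0.070, MSTRG.37808 and MSTRG.37812 (Bicral) at 0.065 and 0.12 and MSTRG.73761 (Bicra) at 0.18. That setting adds 0.21 to every log2 fold change, which fixes these turns. At that scale 5 called members no longer passed (MSTRG.21291, MSTRG.23062, MSTRG.42056, MSTRG.42718 and MSTRG.84164).

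No paired analysis was possible because the sample columns are fitted values without replicate spread. For the same reason no replicate was left out and no other normalization of counts was run. The implied SE of scarce features, 1.09 at the median under 5 fitted counts, limits what can be seen there.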
